A study of Mus musculus with 8 samples.

Results

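Macrophage lineage transcription factors were examined in bone marrow-derived macrophages, a set of 8 genes (Spi1, Cebpa, Cebpb, Maf, Runx1, Ets2, Fli1 and Tfec) out of 19280 genes tested on the array. They were chosen by name, through every non-control probe whose gene name is a member. The array design names 6 of them as above and lists Spi1 and Tfec under the older names Sfpi1 and Tcfec, which were matched through their RefSeq accessions. Together the 8 genes have 10 probes, with a pair each for Maf and Runx1. The macrophages came from male C57BL/6J mice and were grown in culture from bone marrow. Cells of 4 mice were each transfected with siRNA against the terminal loop of RNY (the Y RNA siRNA, n = 4) or with the control (Ct) siRNA (n = 4), so every sample is a transfected culture and no untransfected cells were analysed here. Y RNAs are small noncoding RNAs, and the series looks for targets of the fragments cut from them, called s-RNYs. No siRNA sequence, dose or time after transfection is given in the sources used here.

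These factors set up and hold the macrophage state. PU.1, the product of Spi1, is the ETS factor that myeloid cells cannot form without, and it opens enhancers together with C/EBP alpha, C/EBP beta and RUNX1. C/EBP alpha acts in the step to granulocyte and monocyte progenitors, C/EBP beta in macrophages themselves and in their inflammatory response. MAF restrains macrophage proliferation and drives Il10, while ETS2, FLI1 and TFEC act in mature macrophages and related blood cells.

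All 10 probes were well above background on all 8 arrays, in both groups. The tissue label was checked against markers. All 10 macrophage markers listed, among them Csf1r, Adgre1 and Cd68, were well above background on at least 4 arrays, the condition for a probe to be tested. By contrast 13 of 16 transcription factors of other blood lineages were not, including Gata1, Pax5, Ebf1 and Tcf7. The exceptions were Foxp3, Hoxa9 and Meis1. Marker lists of other cell types met the condition in part: 6 of 7 osteoclast, 7 of 12 neutrophil, 4 of 6 fibroblast and 3 of 8 lymphocyte markers. It was also met by 2 of 8 dendritic cell markers and 2 of 7 mast cell and basophil markers. Of the 7 erythroid and megakaryocyte markers on the array, 2 met it. Across the arrays 48.7% to 50.7% of spots exceeded background clearly, and the number of saturated spots was 0. The arrays lay on 1 slide, with the Y RNA siRNA in slide columns 1 and 3 and the control in columns 2 and 4, so that column and group cannot be told apart. The RNA integrity number was 8 for the control culture of mouse 4 and 10 for the other samples. In RNA from a whole culture, fewer cells of a type and less RNA per cell cannot be told apart.

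The probes are printed by the 30 bases at the 5′ end of their 60, with mm9 positions from the array file, for the genes that were read by a pair of probes and gave unlike patterns between mice. The Maf probes lie 20.4 kb apart, one against the RefSeq transcript and one against the Ensembl transcript ENSMUST00000069009, and the Runx1 probes lie 1.31 kb apart on transcripts of the same gene.
Maf, A_51_P405167, chromosome 8, 118227736 to 118227795, minus strand: tgggtatgtgtagttcttgctataccatgg
Maf, A_55_P1962429, chromosome 8, 118207273 to 118207332, minus strand: gaacaagccttggtttacattagaataacg
Runx1, A_55_P2183438, chromosome 16, 92605785 to 92605844, minus strand: caggagggcccttggaggccaccaggaaga
Runx1, A_51_P206585, chromosome 16, 92604413 to 92604472, minus strand: tgtgcatcgtgtcactgtaaatgtaatggt

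The Y RNA siRNA was followed by no difference in any of the 8 factors that passed the test. With the probe of highest mean signal standing for each gene, 5 members were higher and 3 lower with the Y RNA siRNA, where 52.3% of all genes were higher. The log2 differences ran from -0.16 (Cebpa) to 0.10 (Maf). The median over the members was 0.03, against 0.0045 over all genes. In limma, 0 of 8 members had an adjusted p under 0.05, as did 0.00% of all genes, and the adjusted p was 1.00 for each member. At an unadjusted p under 0.05 the count was 0 of 8, against 3.39% of all genes. The groups overlapped for all 8 members, and they did not overlap for 2.43% of all genes, 1.34% with the Y RNA siRNA higher and 1.09% with it lower. Differences as large as 1.5-fold in either direction lay outside the 95% interval of all 8 members (84.7% of all genes).

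**Figure D1:**
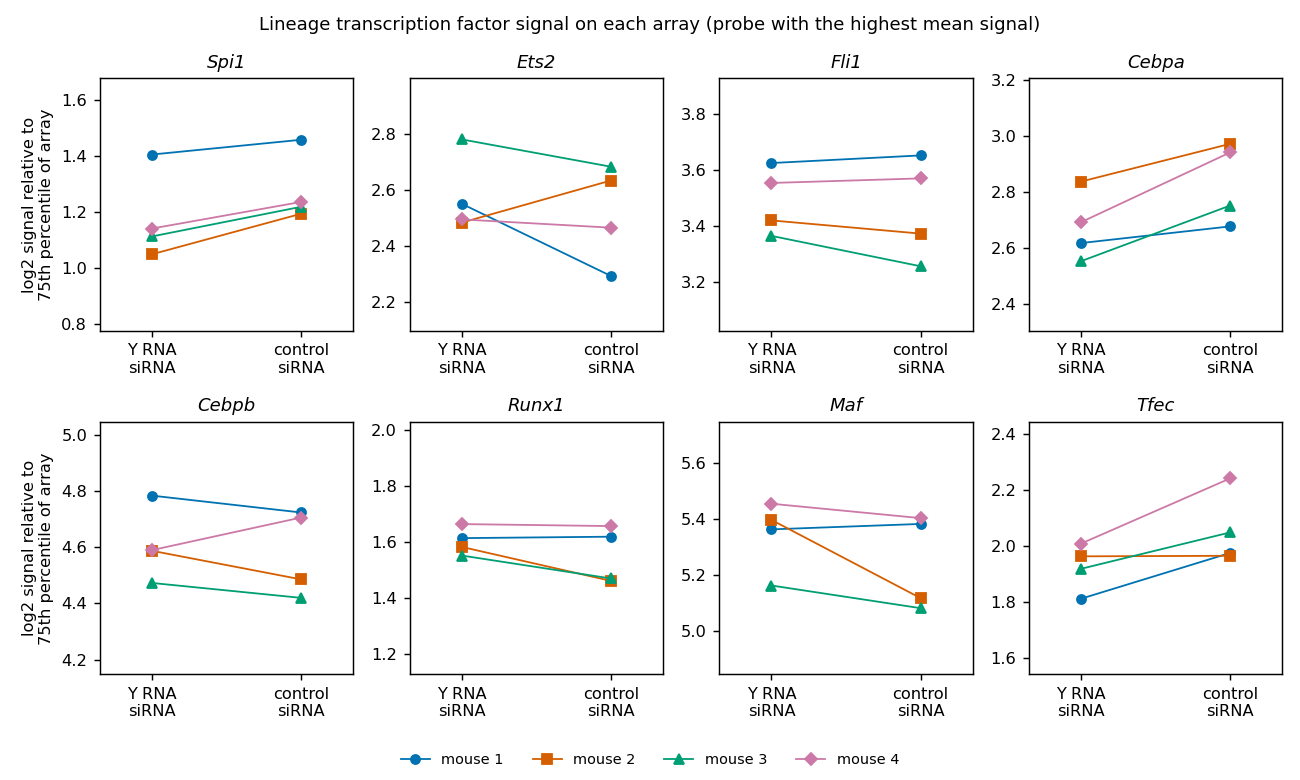
Log2 signal minus the 75th percentile of its array (y axis, each panel spanning the same 0.9 units) for each of the 8 genes with the Y RNA siRNA (left) and the control siRNA (right). Lines join the cultures of a mouse; Spi1, Cebpa and Tfec are lower with the Y RNA siRNA in all 4 mice, and the groups overlap in every panel.

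Each level is a log2 signal from which the 75th percentile of its array was subtracted, given for mice 1 to 4 in that order. A difference is the level with the Y RNA siRNA minus that with the control siRNA. Unless marked as blocked by mouse, each SE and 95% interval of a difference comes from a fit that leaves the cultures of a mouse unpaired. Pairing them gave a smaller SE for each member, such as 0.04 for Spi1 and 0.05 for Cebpa. Among the ETS factors, Spi1 (probe on chromosome 2, 90939665 to 90953452, a span of 13788 bases for a probe of 60, so it crosses a splice junction) had levels of 1.41, 1.05, 1.11 and 1.14 with the Y RNA siRNA and of 1.46, 1.19, 1.22 and 1.24 with the control siRNA. It was lower with the Y RNA siRNA in 4 of 4 mice, and its mean was 1.18 ± 0.16, against 1.28 ± 0.12 in controls (SD, n = 4 each). The log2 difference was -0.10 ± 0.10 (SE), with a 95% interval of -0.32 to 0.12. Both cultures of mouse 1 stood above the other 6, so the groups overlapped widely although every pair ran the same way.

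Ets2, a factor phosphorylated downstream of the CSF1 receptor and MAP kinases (chromosome 16, 95942227 to 95942286), had levels of 2.55, 2.48, 2.78 and 2.49 with the Y RNA siRNA and of 2.29, 2.63, 2.68 and 2.46 with the control siRNA. It was higher in mice 1, 3 and 4 and lower in mouse 2, and its control level in mouse 1 was the lowest of the 8 arrays. The mean log2 difference of 0.06 ± 0.11 (SE) was under its error, and without the control array of mouse 1 it was -0.02. Fli1, an ETS factor of endothelial and blood cells (chromosome 9, 32229857 to 32229916), had levels of 3.62, 3.42, 3.36 and 3.55 with the Y RNA siRNA and of 3.65, 3.37, 3.26 and 3.57 with the control siRNA. Its log2 difference was 0.03 ± 0.10 (SE), higher in 2 of 4 mice.

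Of the C/EBP factors, Cebpa had the largest difference among the 8 genes. Its levels were 2.62, 2.84, 2.55 and 2.69 with the Y RNA siRNA and 2.68, 2.97, 2.75 and 2.94 with the control siRNA (chromosome 7, 35906517 to 35906576). The mean was 2.67 ± 0.12, against 2.83 ± 0.14 in controls (SD, n = 4 each), a log2 difference of -0.16 ± 0.09 (SE) or 0.895-fold, with a 95% interval of 0.773-fold to 1.04-fold. It was lower in 4 of 4 mice, by 0.06, 0.13, 0.20 and 0.25, and the unadjusted p was 0.118 (limma). Cebpb, the C/EBP factor of the inflammatory response (chromosome 2, 167515828 to 167515887), had levels of 4.79, 4.59, 4.47 and 4.59 with the Y RNA siRNA and of 4.72, 4.49, 4.42 and 4.71 with the control siRNA. It was higher in mice 1, 2 and 3 and lower in mouse 4, and the mean log2 difference was 0.02 ± 0.10 (SE).

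On its probe of highest signal Runx1, the DNA-binding partner of CBF beta, had the narrowest spread of the 8 genes, with an SD of 0.08 over the 8 arrays. That probe had levels of 1.61, 1.58, 1.55 and 1.66 with the Y RNA siRNA and of 1.62, 1.46, 1.47 and 1.66 with the control siRNA. The log2 difference was 0.05 ± 0.06 (SE) there and -0.02 ± 0.14 (SE) on the other Runx1 probe. The probes thus differed in sign, and neither difference exceeded its unpaired error. Pairing the cultures by mouse lowered the SE on the probe of highest signal to 0.04, under the difference of 0.05 (unadjusted p = 0.271, limma). That other probe spread more widely, with SDs of 0.18 with the Y RNA siRNA and 0.24 with the control siRNA (n = 4 each). On the probe of highest signal these were 0.05 and 0.10.

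Maf levels on the probe of highest signal were 5.36, 5.40, 5.16 and 5.45 with the Y RNA siRNA and 5.38, 5.12, 5.08 and 5.40 with the control siRNA. The log2 difference was 0.10 ± 0.10 (SE), and most of it lay in mouse 2, where the pair differed by 0.28, against 0.08 or less in size in the other mice. On the probe for the Ensembl transcript the difference was 0.0023 ± 0.16 (SE). No Maf value set the groups apart.

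Tfec, a basic helix-loop-helix factor of the MiT/TFE family that is restricted largely to macrophages (chromosome 6, 16783720 to 16783779), had levels of 1.81, 1.96, 1.92 and 2.01 with the Y RNA siRNA and of 1.98, 1.96, 2.05 and 2.24 with the control siRNA. It was lower with the Y RNA siRNA in 4 of 4 mice, although by 0.0019 only in mouse 2. The mean was 1.93 ± 0.08, against 2.06 ± 0.13 in controls (SD, n = 4 each), with a log2 difference of -0.13 ± 0.08 (SE) and a 95% interval of 0.805-fold to 1.03-fold.

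**Figure D2:**
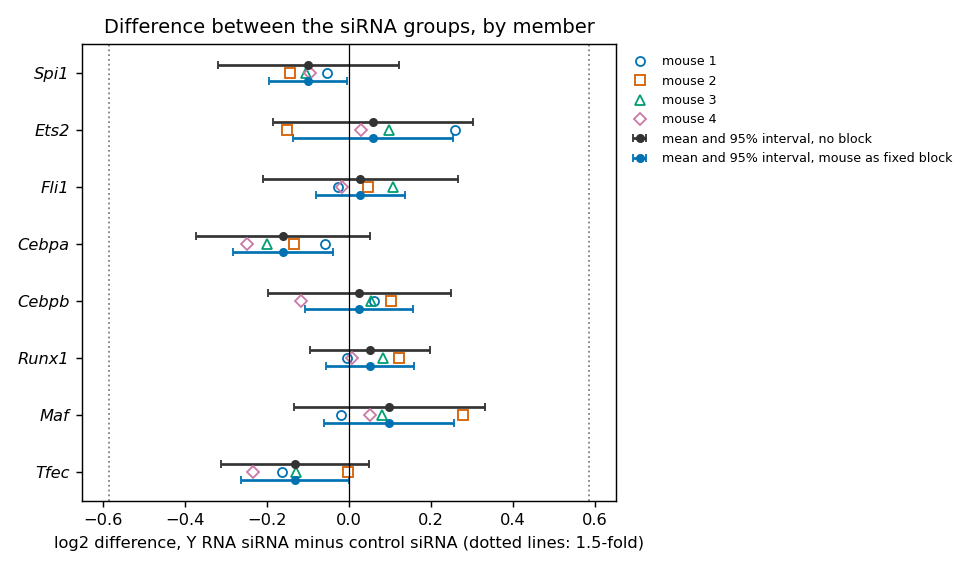
Log2 difference between the Y RNA siRNA and the control siRNA (x axis) for each gene (rows), as open symbols for the 4 mice and as filled points with 95% intervals for the mean, without a block (dark) and blocked by mouse (blue). All intervals lie inside the dotted lines at 1.5-fold; with the block those of Spi1 and Cebpa lie below 0.

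Spi1, Cebpa and Tfec were the 3 of 8 members that were lower in all 4 mice, against 8.87% of all genes, and 0 of 8 were higher in all 4 mice, against 10.4%. In either direction this was 3 of 8, against 19.3%. With the mouse as a fixed block, which sets each culture against the other culture of its mouse, the unadjusted p was 0.0443 for Spi1, 0.0197 for Cebpa and 0.0505 for Tfec (limma). That count of 2 of 8 members under 0.05 stands beside 9.26% of all genes, and after adjustment over all genes 0 of 8 passed, with adjusted p of 0.533, 0.450 and 0.539 for these 3 genes. When the mouse entered as a random effect, 11 genes of the array passed (0.0571%), of which 0 were members, and Cebpa and Tfec were the 2 of 8 members at an unadjusted p under 0.05, against 9.53% of all genes. The median difference of the 8 members was -0.02, 0.02, 0.07 and -0.06 in mice 1 to 4, so its sign differed between the mice.

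RefSeq start regions (GRCm38.p6, 250 bases before to 50 after the start) were at hand for 5 of the 8 members, in 6 windows. They are printed for Cebpa and Tfec, the members lower in all 4 mice that have one. Core motifs of the factors themselves were searched on both strands: GAGGAA for PU.1, CCGGAA for other ETS factors, TTGCNNAA for C/EBP, TGTGGT for RUNX, TCANGTG for MiT/TFE and TGCTGAC for MAF, with capitals marking matches.
Cebpa, chr7:35119043-35119342, plus strand: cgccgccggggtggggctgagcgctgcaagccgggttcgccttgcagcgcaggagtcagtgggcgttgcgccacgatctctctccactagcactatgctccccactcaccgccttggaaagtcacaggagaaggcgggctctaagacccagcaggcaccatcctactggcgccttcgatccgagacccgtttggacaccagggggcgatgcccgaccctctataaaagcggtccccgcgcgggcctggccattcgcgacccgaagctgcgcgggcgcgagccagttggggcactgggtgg
Tfec, chr6:16898392-16898691, minus strand: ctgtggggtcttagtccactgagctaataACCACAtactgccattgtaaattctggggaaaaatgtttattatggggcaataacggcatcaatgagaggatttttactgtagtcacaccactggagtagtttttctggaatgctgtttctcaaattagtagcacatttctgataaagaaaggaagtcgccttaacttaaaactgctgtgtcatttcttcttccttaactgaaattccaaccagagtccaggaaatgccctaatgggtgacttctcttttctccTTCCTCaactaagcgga
The Cebpa window held none of these letters. The Tfec window held 1 PU.1 match, read as TTCCTC on the strand shown, and 1 RUNX match, read as ACCACA. Of 32851 windows of the same length 28.3% hold the PU.1 letters and 16.8% the RUNX letters, so such matches are frequent. The Cebpb and Ets2 windows held no match. Of the Runx1 windows, one had a PU.1 and an ETS match, and the other had 2 RUNX matches and a palindrome read as MiT/TFE on both strands.

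The members were next compared between mice. The range of the 4 mouse means (each over both cultures of a mouse) was 0.15 to 0.33 on the log2 scale for the 8 genes, with a median of 0.31, against 0.25 over all genes. Cebpb and Fli1 ran in the order mouse 1, 4, 2, 3 from high to low. For Cebpb the mouse means were 4.75, 4.54, 4.45 and 4.65 in mice 1 to 4, and for Fli1 they were 3.64, 3.40, 3.31 and 3.56. Ets2 ran the opposite way, with 2.42, 2.56, 2.73 and 2.48. Spi1 was at 1.43 in mouse 1, against 1.12, 1.17 and 1.19 in mice 2 to 4, but this gap depended on the scaling of the arrays: without scaling its mouse means were 10.47, 10.44, 10.47 and 10.38, a range of 0.0875.

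The test between mice, limma's F with siRNA as a term, gave 0 of 8 members at an adjusted p under 0.05, against 4.67% of all genes, and 4 of 8 at an unadjusted p under 0.05 (Spi1, Fli1, Cebpa and Cebpb), against 29.7%. The smallest adjusted p was 0.0798, for Spi1. Arrays of mice 1 and 2 shared slide row 1, those of mice 3 and 4 shared slide row 2, and mouse and bone marrow preparation cannot be told apart. The 75th percentile that scales each array moved with this order: it was 9.04 on both arrays of mouse 1, 9.19 and 9.20 for mouse 4, and 9.27 to 9.34 for mice 2 and 3 (log2). Under median centring, quantile normalization, normexp and the authors' deposited table the orders of Cebpb, Fli1 and Ets2 were as given, whereas without any scaling between arrays Ets2 had the same order and Spi1, Cebpb and Fli1 did not. The unscaled ranges were 0.0989 for Cebpb and 0.141 for Fli1, against 0.576 for Ets2.

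On the probe level, 1 of 10 member probes passed this test between mice, against 3.00% of all probes. It was the Maf probe for the Ensembl transcript, with 1.23, 0.90, 0.64 and 0.94 with the Y RNA siRNA and 1.24, 0.85, 0.60 and 1.02 with the control siRNA in mice 1 to 4. The cultures of a mouse differed by -0.07 to 0.05, while the mouse means spanned 0.61 (adjusted p = 0.0425, limma). The other Maf probe had mouse means of 5.37, 5.26, 5.12 and 5.43, a range of 0.31, with mouse 4 above mouse 1 (adjusted p = 0.201 over probes). The call on the Ensembl probe was lost with median centring (adjusted p = 0.0656), with no filter on dim probes (0.135) and without any 1 mouse (0.0565 to 0.367), the last being that without mouse 1, where the range was 0.36. The Runx1 pair had the same contrast, with a range of 0.47 on the probe at 92604413 (adjusted p = 0.0678), which ran in the order mouse 1, 4, 2, 3, and of 0.15 on the probe of higher signal (adjusted p = 0.306). With normexp (adjusted p = 0.0281) and with the authors' deposited table (0.0441) that Runx1 probe at 92604413 passed as well. Without scaling between arrays the Runx1 ranges were alike, at 0.207 and 0.200, but the probes still ranked the mice differently. The probe at 92604413 had mouse means of 10.51, 10.36, 10.30 and 10.41 in mice 1 to 4, highest in mouse 1. The probe of higher signal had 10.66, 10.84, 10.82 and 10.86, lowest in mouse 1. The unscaled Maf ranges were 0.344 on the Ensembl probe and 0.212 on the other.

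**Figure D3:**
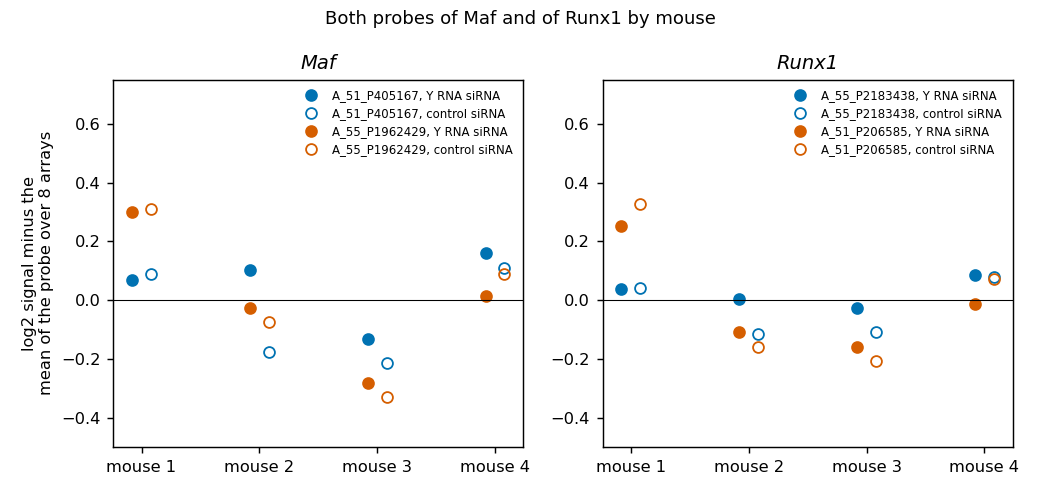
Log2 signal of each probe of Maf (left) and Runx1 (right) minus that probe's mean over the 8 arrays (y axis), by mouse (x axis), with the Y RNA siRNA filled and the control siRNA open. The probes in orange span the mice more widely than those in blue, and both cultures of mouse 1 are highest on them.

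Genes with the profile nearest to that of a member were sought for Ets2 and Cebpa. On the probe of highest signal these had the largest SD over the 8 arrays, 0.150 each, against 0.148 for Maf. The other probes of Maf and Runx1, which spread more widely, were left out of this ranking. The measure was the root mean square difference of centred log2 profiles among 12474 named genes. Nearest to Ets2 were the methyltransferase gene Bud23 (0.0356), the replication protein A subunit Rpa3 (0.0383) and Memo1 (0.0390). Like Ets2 they were lowest on the control array of mouse 1, which follows from picking them by its profile. Nearest to Cebpa were the SNARE gene Snap29 (0.0620), Tmem151a (0.0634) and the Toll-like receptor gene Tlr1 (0.0652). The 8 points share 4 mice and 1 slide.

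Relatives and partners of the members had no gene past the adjusted threshold either (0.00% of all genes in that test). Of 16 other ETS genes tested, 8 were higher and 8 lower with the Y RNA siRNA, with a median of -0.0027. Elf4 had a log2 difference of -0.44 ± 0.16 (SE) and Etv6, a repressor needed in blood stem cells, one of 0.15 ± 0.06 (SE), with unadjusted p of 0.0273 and 0.0493 (limma). Fev was at -0.41 ± 0.26 and Etv4 at 0.08 ± 0.08 (SE). Elf4 and Fev had low signal, with mean levels of -3.73 and -4.40 with the Y RNA siRNA and of -3.30 and -3.98 with the control siRNA. The pairs of Elf4 differed by -0.46, -0.31, -0.09 and -0.90 in mice 1 to 4. The largest was in mouse 4, whose control RNA had an integrity number of 8. The C/EBP relatives had 1 of 4 higher. This was Ddit3, the stress-induced CHOP protein, at 0.18 ± 0.08 (SE), higher in 4 of 4 mice, beside Cebpe at -0.13, Cebpg at -0.03 and Cebpd at -0.0017.

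Of the 8 genes of the MAF family and its partners tested, 4 were higher and 4 lower, among them the small MAF gene Maff at 0.26 ± 0.14 (SE), Mafg at -0.06 and Mafa at -0.07. The MiT/TFE relatives of Tfec were all lower. Tfeb, the activator of lysosomal genes, was at -0.14 ± 0.08 (SE) and lower in 4 of 4 mice, Mitf was at -0.05 and Tfe3 at -0.01. Of the RUNX partners, Cbfb was at 0.09 ± 0.08 (SE), Cbfa2t3 at 0.10, Cbfa2t2 at 0.02 and Runx3 at -0.05.

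Among 26 other transcription factors of myeloid cells tested, 8 were higher and 18 lower, with a median of -0.04. At an unadjusted p under 0.05 (limma without a block) there were 2 of 26, against 3.39% of all genes. With the mouse as a fixed block there were 11 of 26, against 9.26%, and 0 passed after adjustment. The difference ran the same way in all 4 mice for 14 of 26, against 19.3%. Id3, an inhibitor of basic helix-loop-helix factors, had levels of -0.44, -0.16, 0.35 and 0.0018 with the Y RNA siRNA and of -0.0014, 0.87, 1.89 and 0.65 with the control siRNA. Its log2 difference was -0.92 ± 0.37 (SE), lower in 4 of 4 mice, with an unadjusted p of 0.0386 (limma), and the groups overlapped. Klf4, a factor of monocyte differentiation, was at -0.16 ± 0.06 (SE) with groups that did not overlap (unadjusted p = 0.0211, limma), its relative Klf2 at -0.26 ± 0.12 and Irf5 at -0.11 ± 0.07.

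Genes known to be driven by the members were examined beside them. Of 35 targets of PU.1, C/EBP and RUNX in macrophages, 12 were higher and 23 lower, with a median of -0.03, and 0 passed. The inhibitory Fc receptor Fcgr2b was at 0.34 ± 0.10 (SE), higher in 4 of 4 mice, with an unadjusted p of 0.0105 (limma). The cathepsin gene Ctss was at -0.11 ± 0.05 (SE), the G-CSF receptor gene Csf3r at -0.08 ± 0.06 and the Fc receptor gene Fcgr3 at 0.09 ± 0.09. Of 10 MAF targets 4 were higher, among them the mannose receptor gene Mrc1 at 0.07, beside Il10 at -0.16 ± 0.10 (SE) and the folate receptor gene Folr2 at -0.35 ± 0.33. Of 9 targets of MITF and TFEC 3 were higher, with Gpnmb at -0.08 ± 0.05 (SE), Ostm1 at 0.09 and Clcn7 at 0.06. In the same list, and described after their values were seen, Ctsk was at -0.39 ± 0.85 (SE) and Acp5 at -0.19 ± 0.37, both lower in 4 of 4 mice. The pairs of Ctsk differed by -0.36, -0.43, -0.37 and -0.41 in mice 1 to 4. With the mouse as a block the unadjusted p was 0.000147 for Ctsk and 0.0132 for Acp5, and neither passed after adjustment (adjusted p = 0.202 and 0.416, limma). Of the factors of other lineages the 3 tested were Foxp3 at -0.38 ± 0.22, Hoxa9 at -0.22 ± 0.13 and Meis1 at -0.04 ± 0.06 (SE).

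**Figure D4:**
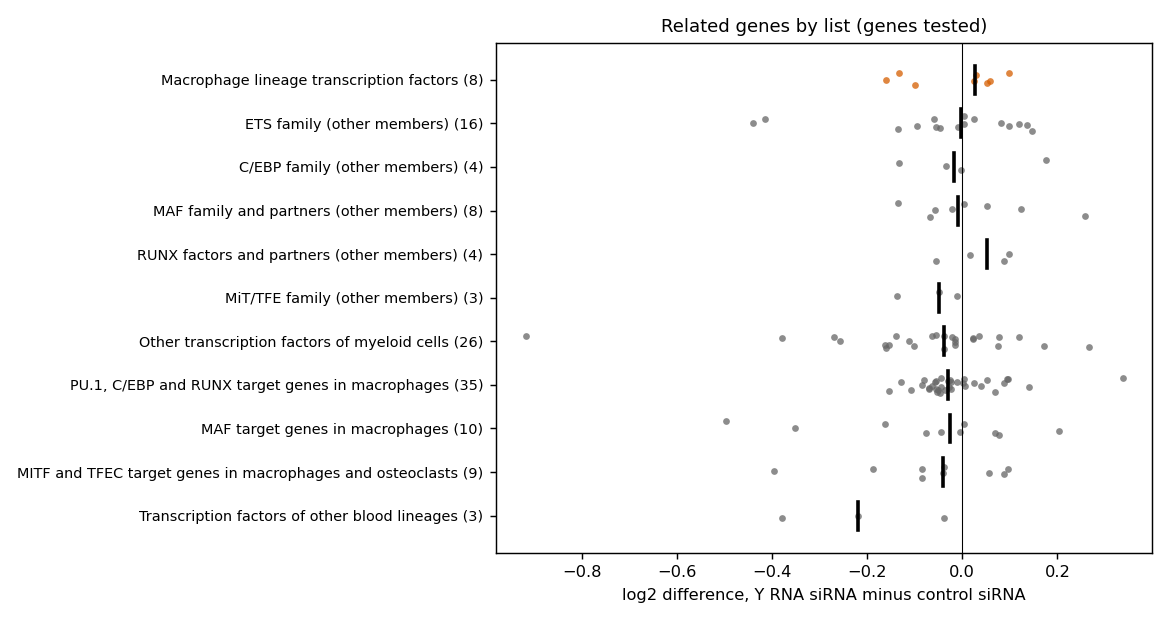
Log2 difference between the Y RNA siRNA and the control siRNA (x axis) for each gene tested in the members' list (top, orange) and in the lists of relatives, targets and other factors (grey), with the number tested in brackets and the median as a bar. The members' median and those of the lists with at least 4 genes lie within 0.1 of 0. The list of factors of other blood lineages, with 3 genes tested, has a median of -0.22.

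Between mice the relatives and targets did hold genes that passed, and these were picked for that after their values were seen. The count was 3 of 16 for other ETS genes, 1 of 4 for other C/EBP genes, 2 of 8 for the MAF family and its partners, 6 of 26 for other myeloid factors, 5 of 35 for PU.1, C/EBP and RUNX targets, 4 of 10 for MAF targets and 3 of 9 for MITF and TFEC targets, against 4.67% of all genes. It was 0 of 4 for RUNX partners, 0 of 3 for the MiT/TFE relatives and 0 of 3 for factors of other lineages, among which Mitf alone had an unadjusted p under 0.05 (limma). Spic, an ETS gene of red pulp macrophages, had mouse means of 2.60, 1.72, 1.36 and 1.99 in mice 1 to 4 (adjusted p = 0.0252, limma). Ctsk, the collagen-degrading cathepsin of osteoclasts, had 2.62, 5.09, 5.63 and 5.36 (adjusted p = 0.000444), and the proton pump subunit gene Atp6v0d2 had 2.69, 4.61, 5.05 and 4.74 (adjusted p = 0.00290). Both were lowest in mouse 1. Tfec was also lowest there, with mouse means of 1.89, 1.96, 1.98 and 2.13, whereas Mitf, another activator of such genes, was highest there, with 4.71, 4.48, 4.41 and 4.47, and neither passed (adjusted p = 0.239 and 0.0972, limma).

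Markers of other cell types were measured in the same cultures. Summed over the 6 of 7 osteoclast markers tested, the signal relative to the 75th percentile was 15.3 to 63.5 with the Y RNA siRNA and 17.9 to 77.1 with the control siRNA. All 6 were lower with the Y RNA siRNA, with a median log2 difference of -0.20, where 52.3% of all genes were higher. Of the 8 members 3 (Spi1, Cebpa and Tfec) were lower and 5 higher. Among the osteoclast markers 0 passed. With the mouse as a fixed block 3 of 6 (Ctsk, Acp5 and Dcstamp) had an unadjusted p under 0.05 (limma), against 9.26% of all genes. One of them, the phosphatase gene Acp5, had mouse means of 2.63, 3.38, 4.06 and 3.66 (adjusted p = 0.00677, limma). The summed signal of the 10 macrophage markers was 1787 to 2118 with the Y RNA siRNA and 1806 to 2121 with the control siRNA. The neutrophil list had 7 of 12 markers tested and a summed signal of 7.31 to 7.92, against 6.63 to 7.81 in controls. The 2 dendritic cell markers tested summed to 82.7 to 96.5, against 88.9 to 96.2 in controls. For the 2 erythroid and megakaryocyte markers tested the sum was 61.2 to 93.2, against 52.3 to 104 in controls. Both lists reached higher sums than the osteoclast markers. Sums for lymphocyte, fibroblast, and mast cell and basophil markers were 4.65 or less. The part of other cells in the differences between mice or between the siRNA groups was not tested.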

How the data were processed

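Per the labels, 0.2 µg of total RNA per culture gave Cy3-labelled material for Agilent arrays read in 1 colour. Per the file headers, the deposited intensity values were made with Agilent Feature Extraction 10.7.3.1. The processed signal is background-subtracted and detrended within the array, with no normalization between arrays. The authors' deposited log2 table, whose method and centring are not stated, served as an alternative only; each of its columns correlated best with its own array.

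Values are log2 processed signal minus the array's 75th percentile, with control and outlier spots left out and spots of a probe averaged. A probe was tested where at least 4 of 8 arrays showed it well above background (26818 of 55681). A gene was represented by its probe of highest mean signal, giving 19280 genes, named through accessions in a RefSeq table (GRCm38.p6) for 26864 probes.

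The comparisons used lmFit and eBayes of limma 3.58.1 (R 4.3.3; two-sided, Benjamini-Hochberg over all genes, threshold 0.05). The series states that both conditions were performed on 4 mice. Deviations of same-numbered arrays correlated at 0.618, 0.155, 0.580 and 0.285 for mice 1 to 4, all over 0.1, so the numbers were taken to pair the samples, although the control array of mouse 2 correlated more with the Y RNA siRNA array of mouse 3 (0.206) than with its own pair. The number of arrays limits the precision. Members, lists, tests and naming rule were chosen with earlier results of these data known. The rule names all members with every probe and up to 4 genes of smallest unadjusted p per list. It also names 3 genes nearest in profile to each of the 2 members of largest SD on the probe of highest signal. Some genes that this rule names are not reported here.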

Additional observations from a re-analysis of the deposited data

Results flagged for a closer look

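Spi1 on the control array of mouse 1, at 1.46, lay far above the other 3 control arrays, by 0.840 of the range of its group. The Y RNA siRNA array of the same mouse was also the highest of its group, at 1.41. Such a gap turns up by chance in about 1 of 20 groups, and 20 were examined.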

How the results depend on the processing

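No member passed under any alternative run for the siRNA comparison, and the smallest adjusted p of a member under any of them was 0.383. Over all genes the count was 0, except 11 with a random replicate block and 3 with the fixed replicate block and normexp, a setting added after the data were seen; with the fixed replicate block alone it was 0. Signs of members near 0 turned: Ets2 was at -0.0397 with array weights, and leaving out arrays or mice gave -0.0167 to 0.128 for Ets2, -0.0338 to 0.0718 for Cebpb, -0.0408 to 0.0910 for Fli1 and -0.0354 to 0.0544 for the median of the members. With the block and without mouse 1, Ets2 was at -0.0078, and without mouse 2 Cebpb was at -0.00094. Spi1, Cebpa and Tfec stayed below 0 under every alternative run, but leaving out arrays or mice gave -0.176 (without the Y RNA siRNA array of mouse 1) to -0.0391 (without its control array) for Spi1, -0.215 to -0.115 for Cebpa and -0.175 (without mouse 2) to -0.0707 for Tfec, the last without the control array of mouse 4, whose RNA integrity number was 8. Between mice, 3309 genes passed with normexp (with 1 member, Cebpa, adjusted p = 0.0453), 1856 with the deposited table, 173 with no filter on dim probes and 2 to 1215 without 1 mouse, the lowest being that without mouse 1. The causes were not tested.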
